A study of Xenopus laevis with 18 samples.

Results

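The transcripts described here were those of Xenopus laevis embryos that were abundant and nearly level from the egg to the tailbud stage. Level refers to a share of the summed Xenopus rows, in libraries depleted of ribosomal RNA, and not to a share of all RNA in the embryo. These transcripts numbered 301 of 30993 Xenopus rows in the table, or 0.971%. They were chosen from the measured values. Spike-in rows were dropped, each library was scaled to 1000000 (these values are called TPM, an abundance on a fixed total, corrected for transcript length), and a row was kept if its mean over the 18 libraries was at least 50 TPM and its highest library was at most 2 times its lowest. Of the 4270 rows that met the limit on the mean, these 301 were 7.05%, and the other 3969 exceeded the limit on the ratio. The TPM values of the 301 rows therefore describe what was selected. Counts of these rows from tests on TPM are printed beside those of all rows, and nothing is read from them.

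A frog egg holds a large store of maternal mRNA, and the embryo divides on that store alone until the midblastula transition, when its own genes are switched on. Maternal messages are then cleared at different rates and new ones accumulate as germ layers and organs form. Transcripts needed in every cell can be passed from the maternal to the zygotic supply with little change in their share of the total. A share says nothing of the amount, since it stays level both when a transcript's amount is constant in a constant total and when transcript and total grow together. Synthetic RNA added to each sample, such as the ERCC spike-ins used here, gives a second scale. Whether that scale is free of the embryo's own RNA total depends on how the spike-ins were added, which the labels do not state.

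The study measured whole embryos of the J strain with no treatment, genotype or other variable than age. One library was made at each of 18 stages, numbered after the Nieuwkoop and Faber (NF) staging table. Per the labels' protocols, a RiboZero kit removed ribosomal RNA, and each library took 50 ng of RNA and 12 cycles of amplification with a ScriptSeq kit. The labels give stage numbers only, and these were grouped here into 5 windows, chosen with earlier results of these data known. The early windows were pre-midblastula (NF 0, 2, 6, 6.5 and 7, n = 5) and blastula (NF 8, 8.5 and 9, n = 3). The later windows were gastrula (NF 10 and 12, n = 2), neurula (NF 14, 16, 18 and 20, n = 4) and tailbud (NF 23, 26, 30 and 33, n = 4). The stage labelled 8.5 was placed by that label, although the sample's title is NF8_II. No stage has a second sample, so every SD below, and the spread behind every test, comes from neighbouring stages and mixes technical spread with real change inside a window. Whether the libraries came from separate clutches or pooled embryos is not stated in the labels.

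The depth of the libraries is unknown, because TPM keeps no depth. Spike-ins made up between 19.2% and 45.9% of the deposited total of a library, so that scaling without them changes every value. In 9 of the 18 columns the deposited total exceeded 1000000, by 1.48% to 2.72%. The excess was traced to the spike-in rows, as set out with the processing. It does not touch the choice of the 301 rows, which used Xenopus rows rescaled without the spike-ins. Row names carry no gene symbols, and 0 of them matched the gene table used here, so no gene or function is assigned and row names stand in for genes. Xenopus laevis is an allotetraploid whose paired gene copies can share reads, which makes the level of a single row uncertain where a near-identical copy exists. In whole embryos, fewer cells that hold a transcript and less of it per cell cannot be told apart.

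The 301 rows were of middling rank among abundant transcripts. Their mean levels ranged from 50.0 to 673 TPM, with a median of 89.5 TPM and quartiles at 66.0 and 128 TPM. The 3969 abundant rows over the limit had a median of 84.4 TPM and reached 15124 TPM. None of the 100 most abundant rows of the table was among the 301 (0 of 100), and 22 of the 500 most abundant were. The member with the highest mean stood at rank 144. Between 50 and 100 TPM 184 of 2559 rows were level (7.19%), between 100 and 200 TPM 85 of 1051 (8.09%), between 200 and 500 TPM 29 of 447 (6.49%), and at 500 TPM or more 3 of 213 (1.41%). The RNA in the set was spread over many rows, since the 10 most abundant held 13.7% of the summed level.

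Most of the 301 rows used much of the range that the limit allowed. The ratio of the highest to the lowest library had a median of 1.76 and ran from 1.18 to 2.00. It was at most 1.25 in 2 rows, at most 1.5 in 46 and at most 1.75 in 146. Over the 4035 abundant rows above 0 in every library the median ratio was 4.68. The limits cut through a continuous distribution. The 3 members nearest the ratio limit had 1.9999, 1.9996 and 1.9972, and the 3 abundant rows just outside it had 2.0031, 2.0037 and 2.0046. The 3 level rows nearest the limit on the mean had 50.0, 50.2 and 50.2 TPM, and the 3 just under it 49.98, 49.6 and 49.6 TPM. A further 754 abundant rows had a ratio over 2 and up to 3.

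**Figure D1:**
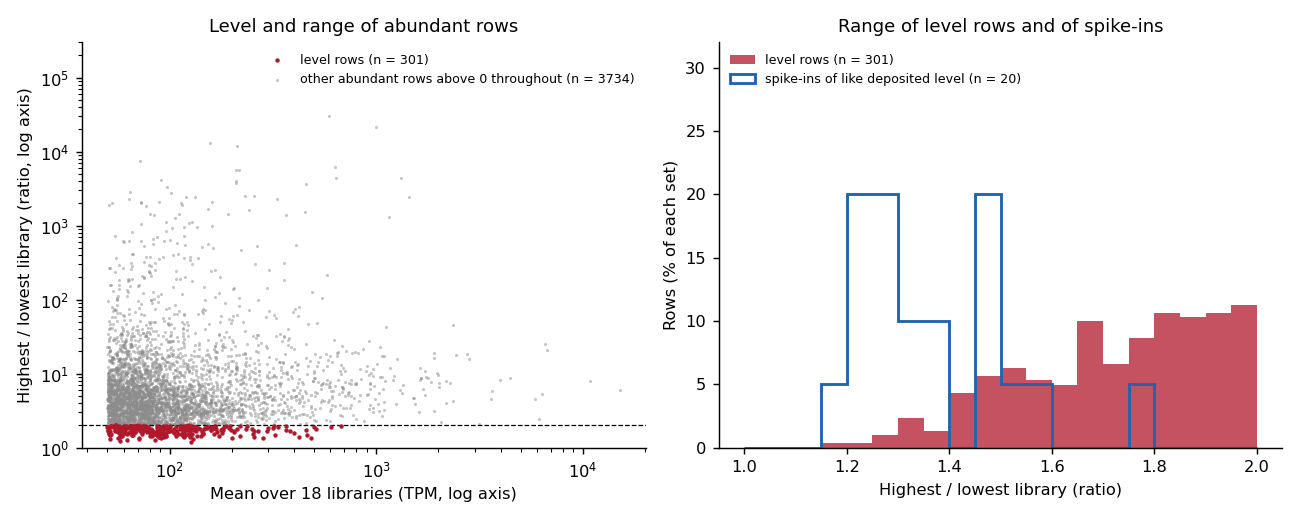
The left panel plots, for each abundant row above 0 throughout, the mean level over the 18 libraries against the ratio of its highest to its lowest library, both on log axes, with the 301 level rows in red under the dashed limit of 2 and 3734 other rows in grey. The right panel gives the distribution of that ratio for the 301 level rows (filled, median 1.76) and for 20 spike-ins of like deposited level (outline, median 1.35).

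The spike-ins give a yardstick for how level a transcript can look in these libraries, since proportions among them do not come from the embryo. In the deposited values 22 spike-ins lay in the range of means spanned by the 301 rows (32.2 to 426 on the deposited scale). As a share of the spike-in total, 20 of them had a ratio of the highest to the lowest library of 1.16 to 1.79, with a median of 1.35. The other 2 were listed at 0, the first in 1 library and the second in 4, and gave no ratio. The ratios of the spike-ins given here leave them out. Of the 301 level rows, 10 were at or under the median of the spike-ins, 165 were at or under their highest ratio of 1.79, and 136 were above it. The value of 1.79 belongs to 1 spike-in. Without it the highest ratio was 1.597, and 79 of the 301 rows (26.2%) were at or under it.

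Together the 301 rows held 3.57% ± 0.156 of the Xenopus total (SD over 18 libraries). By stage the share was 3.48%, 3.49%, 3.51%, 3.49% and 3.48% at NF 0, 2, 6, 6.5 and 7, and 3.53% at each of NF 8, 8.5 and 9. It was 3.37% at NF 10 and 3.66% at NF 12. The neurula libraries had 3.74%, 3.86%, 3.95% and 3.67%, and the tailbud libraries 3.57%, 3.57%, 3.57% and 3.33% at NF 23, 26, 30 and 33. The share was thus highest at NF 18 and lowest at NF 33, and these differed by 1.18-fold. The window means were 3.51% ± 0.118 in tailbud embryos (SD, n = 4) and 3.49% ± 0.0116 in pre-midblastula embryos (SD, n = 5). The tailbud libraries at NF 23, 26 and 30 were above every pre-midblastula library, and the NF 33 library was below every one. Neurula embryos stood at 3.81% ± 0.123 (SD, n = 4), and all 4 neurula libraries were above every library of both other windows.

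The typical abundant row over the limit did not keep such a level. The median of the 301 rows was 87.5 ± 2.65 TPM in tailbud embryos (SD, n = 4) and 87.2 ± 0.338 TPM in pre-midblastula embryos (SD, n = 5). The median of the 3969 rows over the limit was 50.5 ± 5.67 TPM in tailbud embryos and 104 ± 0.524 TPM in pre-midblastula embryos. Their summed share did not fall with that median. All 4270 abundant rows, the 301 included, held 77.1% ± 1.14 of the Xenopus total in tailbud embryos (SD, n = 4). They held 66.7% ± 0.235 in pre-midblastula embryos (SD, n = 5). On the scale of log2(TPM + 1), the median change of the level rows between these windows was −0.01, with 143 rows higher in tailbud embryos and 158 lower. It was −0.94 for the abundant rows over the limit and −0.55 for all 21670 rows tested. The limit on the ratio fixes this contrast, and it is given as a description.

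The median of the 301 rows moved by little from stage to stage, and single rows went both ways. The median of each row's deviation from its own mean, in log2 units, lay between −0.04 and 0.03 from NF 0 to NF 9, at −0.07 at NF 10, and at 0.05 at NF 12. It reached 0.10 at NF 18 and was 0.02, 0.01, 0.00 and −0.01 at NF 20, 23, 26 and 30, and −0.17 at NF 33. The 5th and 95th percentiles lay much further out, at −0.34 and 0.48 at NF 18 and at −0.58 and 0.45 at NF 33. More rows had their highest value at NF 18 (49 rows) and NF 16 (36 rows) than at any other stage. More had their lowest at NF 33 (86 rows, 28.6%) and NF 10 (38 rows) than at any other stage. Of the 3969 other abundant rows, 1666 (42.0%) were lowest at NF 33 and 310 (7.81%) at NF 10, so a low at NF 33 was not particular to the level rows. Each of these counts rests on 1 library. Chosen without NF 33, the same limits kept 444 rows, with 144 gained and 1 lost.

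**Figure D2:**
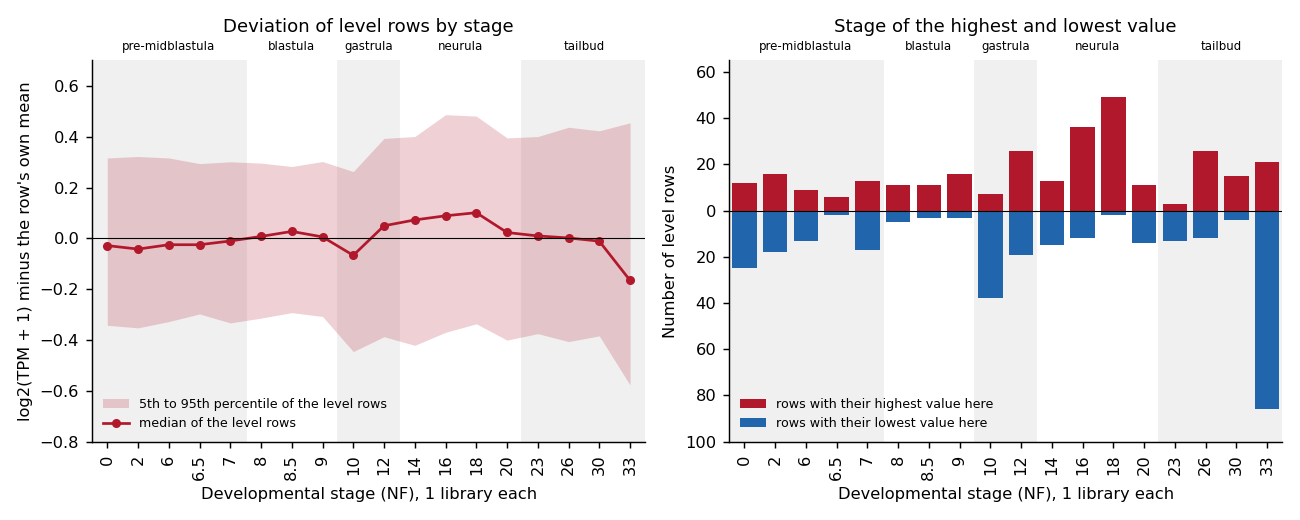
The left panel plots the deviation of log2 TPM from each row's own mean at the 18 stages. No pseudocount was used there, although the axis label reads TPM + 1. The line is the median and the band the 5th to 95th percentile of the 301 level rows. The right panel counts the level rows whose highest value (red, above 0) or lowest value (blue, below 0) fell at each stage, with 49 highest at NF 18 and 86 lowest at NF 33.

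By window means, 49 of the 301 rows were highest in pre-midblastula embryos, 50 in blastula, 33 in gastrula, 117 (38.9%) in neurula and 52 in tailbud embryos. The lowest window was pre-midblastula in 71 rows, blastula in 35, gastrula in 62, neurula in 45 and tailbud in 88 (29.2%). A neurula high with a pre-midblastula low was the commonest pairing, with 51 rows. Among the 3969 abundant rows over the limit, 19.5% were highest in neurula embryos and 29.1% in pre-midblastula embryos, and 52.8% were lowest in tailbud embryos. The median change of the level rows from gastrula to neurula was 0.10 on the log2 scale, with 196 rows (65.1%) higher in neurula embryos and 105 lower. Over all rows tested it was −0.26, with 40.8% higher, and 38.4% of the other abundant rows were higher. From neurula to tailbud the median change of the level rows was −0.11, with 107 rows (35.5%) higher in tailbud embryos and 194 lower. Over all rows tested it was 0.07, with 52.8% higher, and 29.4% of the other abundant rows were higher.

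The first 2 axes of a principal component analysis of these deviations held most of their variance. The first axis held 49.5% and set the libraries of NF 12 to NF 33 (loadings of 0.12 to 0.29) against those of NF 0 to NF 10 (loadings of −0.26 to −0.16). A second axis with 20.4% set NF 12 (0.36), NF 14 (0.31) and NF 16 (0.32) against NF 33 (−0.55) and NF 30 (−0.42). The third held 9.21%. The 8 earliest libraries had almost the same loading on the first axis, between −0.26 and −0.23. The sign of the first axis changed between NF 10 and NF 12, the 2 gastrula libraries.

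The step from stage to stage shows when this happened. From NF 0 to NF 9 the median size of a step, as an absolute log2 change, was 0.06 to 0.08 for the level rows and 0.07 to 0.14 for the 22 spike-ins of like level. The step from NF 10 to NF 12 had a median size of 0.20 for the level rows, 0.62 for the other abundant rows above 0 throughout, and 0.13 for the spike-ins. The step from NF 12 to NF 14 had 0.14 for the level rows, 0.39 for the other rows and 0.08 for the spike-ins. In the last step, from NF 30 to NF 33, the level rows had 0.17, the other rows 0.30 and the spike-ins 0.10, and 229 of the 301 rows were lower at NF 33 than at NF 30.

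The 4 rows given by name are the pair with the largest and the pair with the most negative change between tailbud and pre-midblastula embryos among the 301. XeXenL6RMv10003041m had 166, 178, 167 and 158 TPM in tailbud embryos at NF 23, 26, 30 and 33, against 91.0, 96.8, 96.5, 95.8 and 98.6 TPM in pre-midblastula embryos at NF 0, 2, 6, 6.5 and 7. Its libraries from NF 8 to NF 12 lay between 93.1 and 99.95 TPM and its neurula libraries between 103 and 133 TPM. The row was flat through gastrulation and higher in each later window, with no overlap between tailbud and pre-midblastula embryos. Its means were 167 ± 8.42 TPM in tailbud (SD, n = 4) and 95.8 ± 2.83 TPM in pre-midblastula embryos (SD, n = 5), a ratio of 1.75.

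XeXenL6RMv10012629m had 161, 158, 174 and 179 TPM in tailbud embryos and 99.6, 96.5, 97.8, 99.2 and 93.7 TPM in pre-midblastula embryos. The groups did not overlap. Its neurula libraries already stood at 120, 157, 149 and 153 TPM, so most of the difference from pre-midblastula embryos was present at NF 16.

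The most abundant of the 301 rows was also the one with the most negative change. XeXenL6RMv10036431m had 507, 432, 454 and 454 TPM in tailbud embryos and 831, 818, 835, 829 and 831 TPM in pre-midblastula embryos. It stayed between 796 and 848 TPM up to NF 9, was 728 and 689 TPM at NF 10 and NF 12, and lay between 495 and 592 TPM in neurula embryos. XeXenL6RMv10049311m, the row closest to the ratio limit, had 93.9, 96.6, 102 and 88.0 TPM in tailbud embryos and 164, 175, 167, 163 and 148 TPM in pre-midblastula embryos. It was 142, 142 and 135 TPM in the blastula libraries, and 98.9 and 87.5 TPM at NF 10 and NF 12. The 2 rows differed in timing, since the second was already near its tailbud level at NF 10.

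The row with the lowest ratio of all 301 had a mean of 127 TPM. It had 128, 135, 137 and 136 TPM in tailbud embryos and 132, 129, 117, 122 and 122 TPM in pre-midblastula embryos, and no library fell outside 117 to 137 TPM. The windows overlapped.

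**Figure D3:**
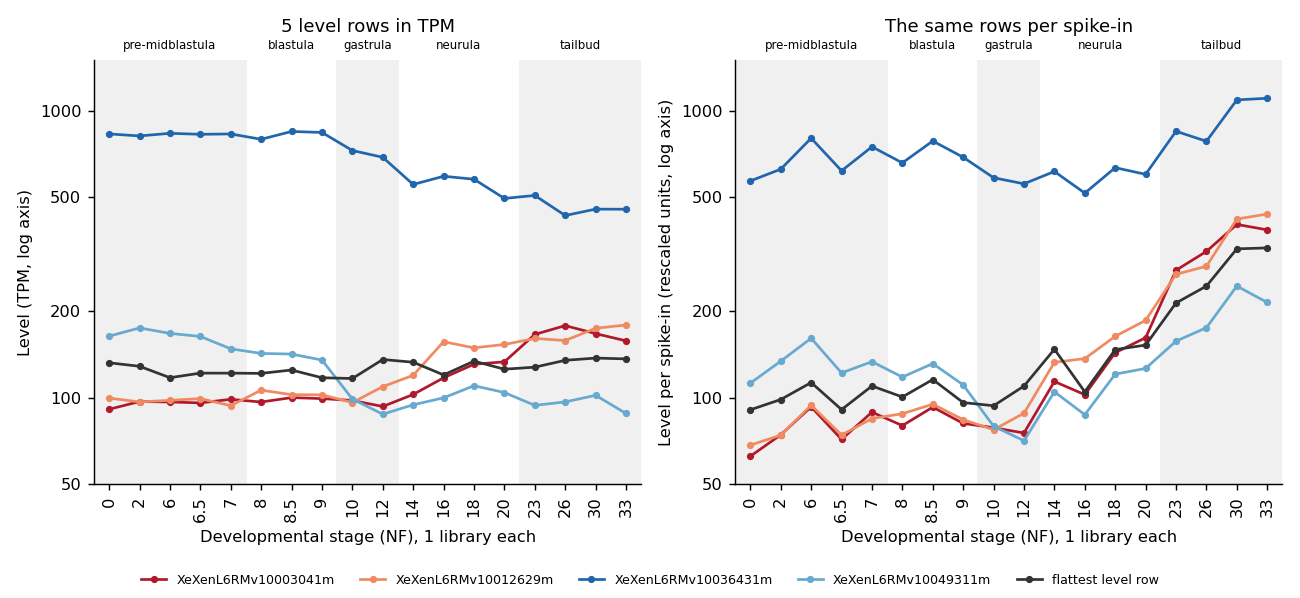
The 4 named rows and the flattest of the 301 are plotted by stage on log axes, in TPM on the left and per spike-in on the right (the deposited value divided by the library's spike-in total, with 1 constant for all libraries that brings the values to the TPM scale). In TPM the flattest row stays between 117 and 137 in every library, and on the right all 5 rows are highest at NF 30 or NF 33.

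The design allows a comparison of tailbud with pre-midblastula embryos across all rows, tested with limma on log2(TPM + 1). Over the 21670 rows tested, 31.4% rose and 51.8% fell in tailbud embryos at an adjusted p under 0.05. All 301 level rows passed the filter on low values, which is a mean of at least 1 TPM. Of them 75 (24.9%) were called higher and 85 (28.2%) lower in tailbud embryos. The rule used these values, so nothing about the level rows is read from these counts or from those that follow in TPM. In 62 of the 301 every tailbud library lay above every pre-midblastula library, against 28.8% of all rows, and in 73 every tailbud library lay below, against 49.2% of all rows. A trend over stage order, fitted with limma as a spline with 4 degrees of freedom, was called in 252 of the 301 rows (83.7%), against 93.9% of all rows. Scaling by the median ratio of the rows above 0 in every library, in place of the total, changed these directions. It raised the tailbud minus pre-midblastula change of the 301 rows by a median of 0.99 log2 units, and put the median change of all rows tested at 0.34 in place of −0.55. With it limma called 299 of the 301 rows higher and 0 lower. Over all rows it called 10027 higher and 6998 lower, in place of 6800 higher and 11231 lower.

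The rule did not use the spike-ins, and on their scale the 301 rows were not level. The Xenopus total was 1.18, 1.32, 1.65, 1.28 and 1.55 times the spike-in total in the pre-midblastula libraries at NF 0, 2, 6, 6.5 and 7. It was 1.91, 1.503, 1.89 and 2.09 times in the neurula libraries at NF 14, 16, 18 and 20, and 2.88, 3.12, 4.14 and 4.20 times in the tailbud libraries at NF 23, 26, 30 and 33. All 4 tailbud libraries were above every library of both other windows. The mean was 3.59 ± 0.680 in tailbud embryos (SD, n = 4) and 1.40 ± 0.198 in pre-midblastula embryos (SD, n = 5), a 2.57-fold difference with p = 0.0159 in a two-sided exact permutation test, the smallest that 126 splits allow, and 0.0429 adjusted over 3 comparisons. Tailbud embryos stood 1.94-fold above neurula embryos, at 1.85 ± 0.247 (SD, n = 4), with p = 0.0286 in the exact permutation test, the smallest that 70 splits allow, and 0.0429 adjusted. Neurula embryos stood 1.32-fold above pre-midblastula embryos, with an exact permutation p of 0.0476, also 0.0476 adjusted, and 3 of 4 neurula libraries above every pre-midblastula library. With any 1 tailbud library left out, the comparison with pre-midblastula embryos had an adjusted p of 0.0571 in the exact permutation test, at folds of 2.42 to 2.73. The other 2 comparisons lost their call with any 1 library of either group left out, at 1.83 to 2.07-fold for tailbud over neurula embryos and 1.26 to 1.40-fold for neurula over pre-midblastula embryos. Without a tailbud or neurula library, the splits left were too few for a comparison using that window to pass after adjustment, whatever the values. Those lost calls therefore say nothing of stability. Without a pre-midblastula library, the comparison of neurula with pre-midblastula embryos could have passed and did not.

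Summed over the 301 rows, the level was 4.11%, 4.61%, 5.81%, 4.48% and 5.40% of the spike-in total in the pre-midblastula libraries, in stage order. Blastula embryos had 5.02%, 5.62% and 4.98%, and gastrula embryos 4.65% and 5.09%. The neurula libraries stood at 7.15%, 5.81%, 7.45% and 7.67%, and the tailbud libraries at 10.3%, 11.1%, 14.8% and 14.0%. Up to NF 12 the libraries of the 3 windows overlapped, the lowest tailbud library was above all others, and NF 30 and NF 33 were the highest. The mean was 12.6% ± 2.18 in tailbud embryos (SD, n = 4) and 4.88% ± 0.700 in pre-midblastula embryos (SD, n = 5), a ratio of 2.57. It was 1.79 for tailbud over neurula embryos, and 1.44 for neurula over pre-midblastula embryos, with 7.02% ± 0.837 in neurula embryos (SD, n = 4).

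**Figure D4:**
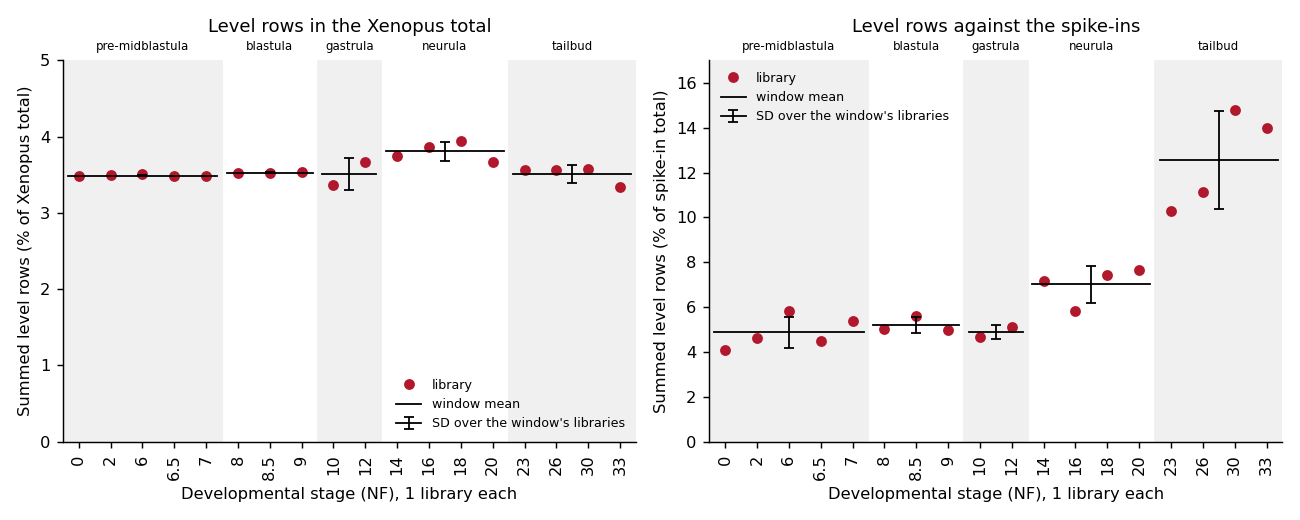
The summed level of the 301 rows is plotted by stage as a percent of the Xenopus total (left) and as a percent of the spike-in total (right), with 1 point per library, window means as lines and the SD over a window's libraries as error bars. The share stays between 3.33% and 3.95%, and the level against the spike-ins is 10.3% or more in the 4 tailbud libraries and at most 7.67% in every earlier one.

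The 2 kinds of column were compared as a possible batch. Within the 9 columns whose deposited total was 1000000 the summed level of the 301 rows was 2.69 times as high in tailbud embryos (n = 3) as in pre-midblastula embryos (n = 2). Within the other 9 it was 2.12 times as high, with 1 tailbud and 3 pre-midblastula libraries. The direction was the same in both kinds, and neither kind holds enough libraries for a test to pass. All pre-midblastula columns and the NF 8 column share a header suffix with no stated meaning. Anything it marks cannot be told apart from early stage.

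Row by row, all 301 were higher in tailbud than in pre-midblastula embryos per spike-in, against 64.8% of all rows tested. The difference was 2-fold or more upward in 242 of the 301 (80.4%), against 43.6% of all rows tested. The change of the 301 rows, on a log2 scale with a pseudocount of 1, had a median of 1.32 and ran from 0.51 to 2.15. The median over all rows tested was 0.67, and over the other abundant rows 0.38. With limma, 301 of the 301 rows rose at an adjusted p under 0.05 and 0 fell, against 51.7% that rose and 23.7% that fell over all rows. In 296 every tailbud library was above every pre-midblastula library, against 46.3% of all rows, and in 0 below, against 21.0%. These counts follow from the rule together with the library ratio, since a row held within 2-fold in TPM cannot be lower in tailbud embryos when the total per spike-in differs by 2.57-fold. The measurement that the rule left free is the library ratio itself.

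The size of the change still differed between rows by their course in TPM. The 49 rows with their highest TPM in pre-midblastula embryos had a median per spike-in change of 0.98 log2 units between tailbud and pre-midblastula embryos. The 50 rows highest in blastula embryos had 1.01, the 33 highest in gastrula embryos 1.17, the 117 highest in neurula embryos 1.46, and the 52 highest in tailbud embryos 1.73. This order follows from the TPM values. XeXenL6RMv10003041m was 4.45-fold and XeXenL6RMv10012629m 4.47-fold higher per spike-in in tailbud than in pre-midblastula embryos. XeXenL6RMv10036431m and XeXenL6RMv10049311m, whose TPM was lower in tailbud embryos, were 1.42-fold and 1.49-fold higher per spike-in. The flattest row was 2.79-fold higher. The direction of the first pair was thus the same on both scales, and that of the second pair was opposite on the TPM and the spike-in scale.

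**Figure D5:**
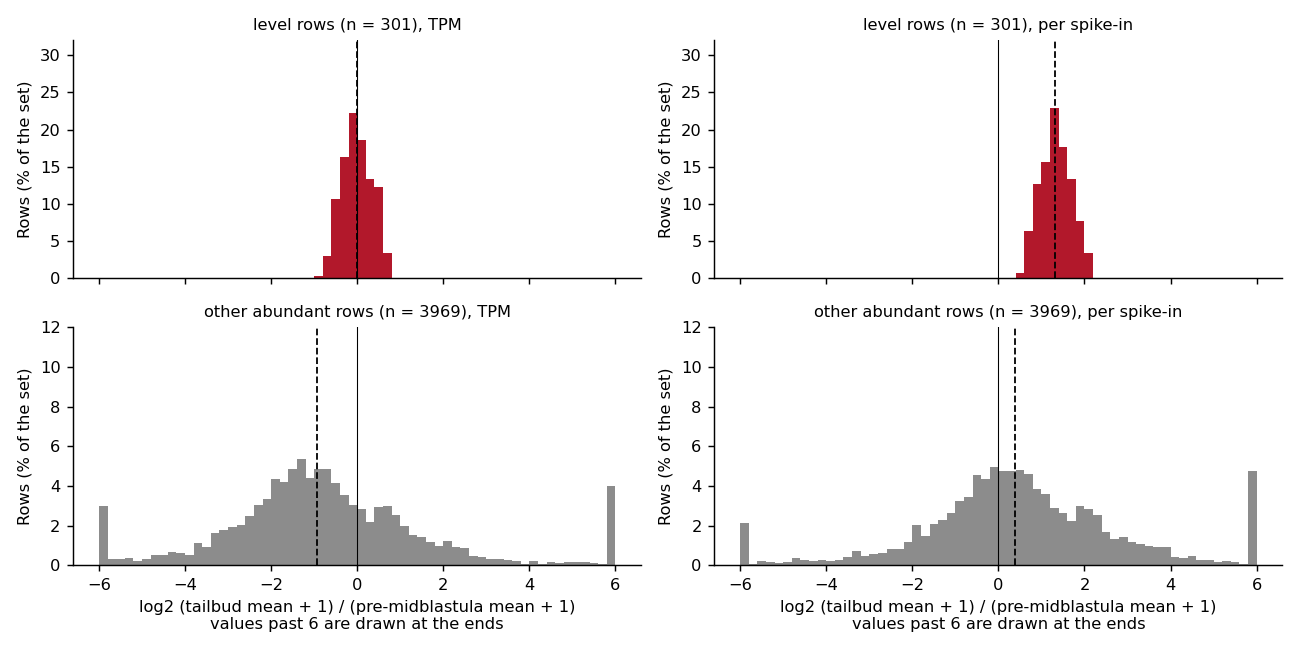
Histograms of the log2 change between tailbud and pre-midblastula means (pseudocount of 1) show the 301 level rows above and the 3969 other abundant rows below, in TPM on the left and per spike-in on the right, as a percent of each set and with separate vertical scales for the sets. Dashed lines mark the medians, which are −0.01 in TPM and 1.32 per spike-in for the level rows, and −0.94 in TPM and 0.38 per spike-in for the others.

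Most of the difference on the spike-in scale lay after gastrulation. Per spike-in, the median change of the 301 rows was 0.10 log2 units between blastula and pre-midblastula embryos and −0.11 between gastrula and blastula embryos. Over all rows tested these medians were 0.07 and −0.35. For the 301 rows it was 0.50 between neurula and gastrula embryos, with 291 rows higher, and 0.82 between tailbud and neurula embryos, with all 301 higher. Over all rows tested the median was 0.06 between neurula and gastrula embryos, with 52.1% of rows higher. Between tailbud and neurula embryos it was 0.91 over all rows, with 85.9% higher, so that rise was not particular to the level rows. The mean Xenopus total per spike-in total was 1.39 in gastrula and 1.85 in neurula embryos. Because the 301 rows were chosen to be level in TPM, their difference from all rows at these steps follows largely from the rule. It is not read as a result about them. Between gastrula and pre-midblastula embryos the median change of the 301 rows was 0.00, with 150 rows higher and 151 lower. Over all rows tested it was −0.26, with 34.7% higher.

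Whether a transcript counts as level depended on the scale. Per spike-in, the ratio of the highest to the lowest library was 2.14 to 7.08 for the 301 rows, with a median of 3.87, and 0 of them stayed within 2-fold. The same 2 limits applied per spike-in selected 260 rows, none of which was among the 301 (0 shared). These 260 rows had a median change of −1.25 log2 units in TPM between tailbud and pre-midblastula embryos. The lack of overlap and this change follow largely from the library ratio. The Xenopus total per spike-in total was 3.56 times as high in its highest library as in its lowest. Under median ratio scaling 213 rows met the limits, and 32 were shared, 10.6% of the 301 and 15.0% of the 213. On the deposited values without rescaling, 190 rows met them, of which 107 were among the 301. The label of level transcripts thus holds for their share of the Xenopus total, the sum of the Xenopus rows, and not for their amount relative to the spike-ins.

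How much spike-in was added, and whether per embryo or per mass of RNA, is not stated in the labels, and each library was made from the same mass of RNA. The per spike-in values therefore cannot be read as amounts per embryo.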

How the data were processed

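RNA of whole Xenopus laevis embryos was sequenced in 18 libraries, 1 per stage. The submitters' processing notes name 4 tools without roles, namely Bowtie, RSEM, Trimmomatic and CASAVA 1.8.2. No reference transcript set or genome build is given in the sources used here. In 9 columns the authors deposited TPM, each summing to 1000000 over 31085 rows, of which 92 are ERCC spike-ins. The other 9 deposited columns hold a signal on the same scale that sums to 1.48% to 2.72% more. In these columns every Xenopus value has at most 2 decimals. The spike-in values are multiples of 2-decimal numbers by 0.25 (23 rows), 2 (23 rows), 1/0.67 (20 rows, 4 of them decided from the column total) or 1 (26 rows, not decidable for low values), and taking these factors out gives totals of 999986 to 1000008. Since the column total decided 4 rows, these totals are not an independent check on the factors. No source used here states these factors. As deposited, the spike-ins of both kinds of column were alike, with medians per factor that differed by −0.05 to −0.01 log2 units, so they were used as deposited.

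Xenopus rows were rescaled to 1000000 per library (TPM), or divided by the summed spike-ins. Window means were tested on log2(value + 1) in R 4.3.3 with limma 3.58.1 (lmFit and trended eBayes), all 18 libraries in 1 fit. The fit took the 21670 rows whose mean reached 1 TPM, and p-values were adjusted by Benjamini-Hochberg, with calls at 0.05. The pseudocount understates the change of low rows. Library ratios were tested with two-sided exact permutation tests (Python 3.11.15, scipy 1.17.1). The limma steps were also run on simulated data, with independent noise per library and few changed rows. This differs from the stage series, where most rows changed, so it does not check the calls made here. The design had assumed TPM in every column. Members, windows and lists were chosen with earlier results of these data known. Named rows are the pair with the largest and the pair with the most negative ratio of tailbud to pre-midblastula means among the members. Lists that need gene symbols were not run. Alternatives were other pseudocounts, filters, scalings, limits, and leaving out each library.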

Additional observations from a re-analysis of the deposited data

Results flagged for a closer look

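The NF 33 library stood apart from the other 3 tailbud libraries in 3 of 30 checks for a value far from the rest, where chance gives about 1.5. Each check took 1 measure within 1 window, and all 3 flags fell in the tailbud window. The 301 level rows held 3.33% of the Xenopus total at NF 33, against 3.57% at each of NF 23, 26 and 30. Their median level was 83.5 TPM at NF 33, against 89.3, 88.5 and 88.5 TPM at NF 23, 26 and 30. The median deviation of the rows from their own means was −0.17 log2 units at NF 33, against 0.01, 0.00 and −0.01. The median of the other abundant rows was also lower there, at 42.5 TPM at NF 33 against 54.8, 54.2 and 50.5 TPM at NF 23, 26 and 30. Of these 3969 rows, 1666 (42.0%) had their lowest value at NF 33. The summed share of all 4270 abundant rows was not lower there, at 77.4% at NF 33 against 78.0%, 75.4% and 77.7% at NF 23, 26 and 30. The 3 flagged values that set NF 33 apart describe the same level rows and are not independent of each other. NF 33 is the last stage of the series and has 1 library, so stage and library cannot be told apart.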

How the results depend on the processing

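A library-ratio call was lost, with its direction kept, in 27 pairs of a result and a setting, and no library ratio changed direction. Within the columns of 1000000 the Xenopus total per spike-in total was 2.69-fold (tailbud over pre-midblastula), 2.24-fold (tailbud over neurula) and 1.20-fold (neurula over pre-midblastula), and within the others 2.08-fold, 1.45-fold and 1.44-fold. Leaving out each library gave 2.42 to 2.73, 1.83 to 2.07 and 1.26 to 1.40. These lost calls come with fewer libraries. Only those of neurula over pre-midblastula embryos without a pre-midblastula library could have been kept at other values. With the median spike-in factor, spike-ins of factor 1 alone or the factors taken out (the last pair chosen after seeing the data), all 3 calls held. The tailbud against pre-midblastula fit in TPM called 10649 rows higher with all rows tested and 3953 with a mean of at least 5, where other numbers of rows enter, and 10027 higher against 6998 lower under median ratio scaling, which turned the balance of 6800 higher against 11231 lower round, and that of the members from 75 and 85 to 299 and 0.

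The number of level rows was 46 at a ratio limit of 1.5 and 1055 at 3, 537 at a mean of 20 TPM and 117 at 100 TPM, 872 by window means, and 190 without rescaling. It was 300 to 444 with a library left out. The 444, with 144 rows gained and 1 lost, came without NF 33, and no other library gained more than 32. The share held by the rows, tailbud minus pre-midblastula, was 0.02 percentage points, too close to 0 for its sign to hold. It was −0.0403 (without NF 30) to 0.0514 (without NF 10) with a library left out, 0.170 at a ratio limit of 3, −0.178 by window means, −0.535 for rows chosen without rescaling, −1.22 for rows chosen with median ratio scaling and −1.71 for rows chosen per spike-in. The median per spike-in change was 1.32 log2 units, 0.38 for rows chosen with median ratio scaling and 0.058 for rows chosen per spike-in. All 301 members kept their per spike-in call in every limma setting, which follows from the rule together with the library ratio and adds no support. Over all rows tested, 7718 to 16001 were called higher per spike-in in these settings. No paired analysis was possible because each stage has 1 library and the labels give no replicate numbers. Without read counts, no counting interval can be given.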
